A study of Saccharomyces cerevisiae with 12 samples.

Results

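Loss of CNB1 was examined in unstressed budding yeast that already lacked CRZ1, by comparing 3 libraries of the crz1cnb1 strain with 3 libraries of the crz1 strain, all taken before any KCl was added (0 h). These 6 libraries were chosen by their labels, from 12 in the whole study, and were compared in pairs of the same replicate number. The study measured poly(A) RNA by sequencing in these 2 strains, before and after growth for 48 h with 400 mM KCl, as 4 groups of 3 libraries each. Both strains were MATa haploids described as BY4741 derivatives, and grew in synthetic medium whose nitrogen source was ammonium chloride. Both carried his3delta1, ura3delta0, leu2delta0, lys2delta0 and crz1delta::LEU2, and an insertion on chromosome VI of HYG-TEFp-GFP(Y66F), a hygromycin marker with a GFP variant behind the TEF promoter. The crz1cnb1 strain also carried cnb1delta::KanMx, so CNB1 is the 1 listed difference between the strains, with its KanMx marker. The labels do not say how many isolates of each strain were used or whether each replicate was its own culture. The p-values below then speak only for the spread among these libraries.

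Calcineurin is a protein phosphatase that calcium and calmodulin switch on. It consists of a catalytic subunit, encoded in yeast by CNA1 or CMP2, and a regulatory subunit encoded by CNB1, without which it has no activity. Its best known substrate in yeast is the transcription factor Crz1, which enters the nucleus once dephosphorylated and activates genes of the cell wall, ion transport and signalling. With CRZ1 deleted in both strains, the comparison asks which transcripts follow the loss of calcineurin other than through Crz1. The called genes include several of the phosphate (PHO) pathway, in which the transcription factor Pho4 binds the sequence CACGTG and activates transporters and phosphatases when phosphate is scarce. The kinase complex of Pho85 and Pho80 phosphorylates Pho4 and keeps it out of the nucleus in ample phosphate, and Pho81 inhibits that kinase.

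Among 6309 tested features, 21 differed between the strains at 0 h in edgeR's quasi-likelihood test with a block for each pair (Benjamini-Hochberg adjusted p under 0.05), which is 0.333% of those tested. CNB1 itself was lower, and of the other 20 features 14 were higher in crz1cnb1 (0.222% of all tested) and 6 were lower. The higher genes included 6 of the phosphate pathway, PHO89, SPL2, PHO84, PHO12, PHO5 and VTC3, and 3 that encode proteins of the cell wall, the cell surface or stress, CWP1, YGP1 and HSP12. The lower genes included STE3 and PRM6, both of mating, and the putative permease gene SEO1. At least 2-fold differences were seen in 8 of the 20. All 21 had the same sign in 3 of 3 pairs, as did 30.7% of all tested features, and in 16 of the 21 the libraries of the 2 strains did not overlap, as in 3.61% of all. Without the replicate block, which sets the difference against the spread between replicate numbers, CNB1 was the 1 feature called, and the adjusted p of the other 20 ran from 0.0689 for PHO89 and RDN5-1 to 0.9997. Every edgeR call other than CNB1 below therefore rests on the pairing. DESeq2 without the block called 7 of the 21, namely CNB1, PHO89, PHO84, SPL2, RDN5-1, STE3 and SEO1. With a replicate block shared between treatments, edgeR called 5 of the 21, namely CNB1, PHO89, SPL2, RDN5-1 and STE3. In that fit the adjusted p was 0.1368 for PHO12, 0.3575 for PHO84, 0.4955 for PHO5, 0.708 for VTC3 and 0.7398 for YGP1. With library totals in place of TMM scaling (the trimmed mean of M-values), 12 features were called higher and 17 lower, and the median log2 difference of all features moved from 0.01 to -0.10. On log2(TPM + 1) 6 were called higher and 13 lower, with a median of -0.11.

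**Figure D1:**
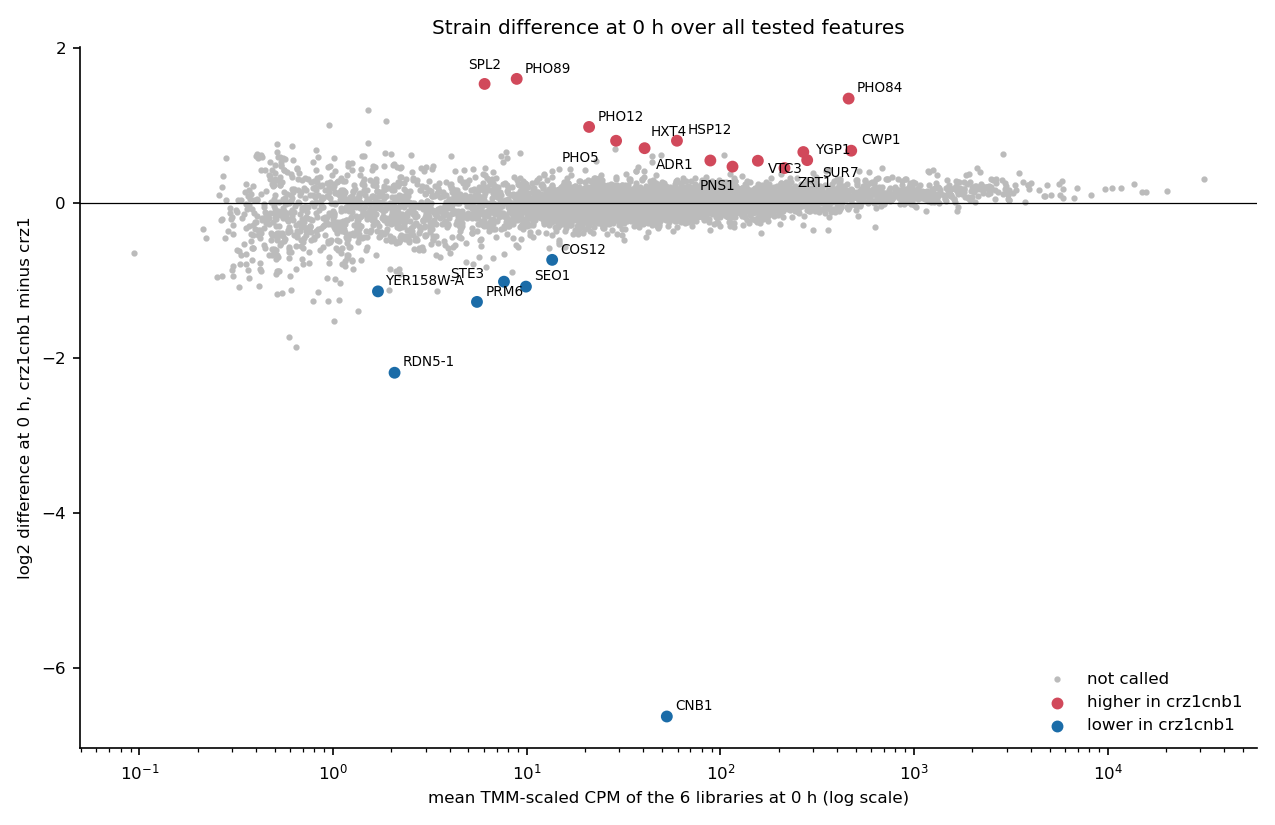
Log2 difference between the strains at 0 h (crz1cnb1 minus crz1, vertical axis) against the mean TMM-scaled CPM (counts per 1000000 counts of a library) of the 6 libraries (log axis), with 1 point for each of 6309 tested features. Red points are the 14 called higher and blue points the 7 called lower, with CNB1 at -6.63, and the grey cloud lies slightly below 0 at low levels and slightly above 0 at high levels.

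The strain difference also ran with the level of expression. The median log2 difference was -0.17 in 368 features under 1 CPM, -0.07 in 906 features from 1 to 10 CPM and -0.01 in 3429 from 10 to 100 CPM. It was 0.06 in 1405 features from 100 to 1000 CPM and 0.15 in the 201 features at 1000 CPM or more, of which 97.5% were positive. In these most abundant features the median was 0.06, 0.29 and 0.12 in pairs 1, 2 and 3. Of the 14 features called higher, 7 had at least 100 CPM, and of the 7 called lower, 5 had under 10 CPM. The part of this trend in the calls was not tested. The libraries at 0 h held 21356536 to 21514475 counts, and the upper limit behind a count of 0, taken as 3 counts, was 0.139 to 0.140 CPM for counting error alone. In the 2 libraries of replicate 3 the 10 most abundant genes took 15.9 to 16.6% of the counts, against 11.3 to 12.4% in the other 4.

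The labels were checked against the deleted genes. On chromosome XI, CNB1 (YKL190W, 82947 to 83550 in build R64, which holds for all positions here) stood at 120.1, 120.3 and 73.5 CPM in crz1 replicates 1, 2 and 3, and at 1.47, 0.878 and 0.824 CPM in crz1cnb1. The groups were far apart, and the 14 to 31 counts left per crz1cnb1 library compared with 1346 to 2889 in crz1. CNB1 was lower by 98.8-fold, a log2 difference of -6.63 ± 0.20 (SE; edgeR adjusted p = 8.88e-08). CRZ1 had 4 to 9 counts in each of the 6 libraries and was not tested, and URA3 and LYS2 had 0 counts in all of them. HIS3, listed as his3delta1, had 505 to 1943 counts, and MET17, which BY4741 is known to lack but the genotype does not list, had 19936 to 27137, so these counts follow the listed alleles and not the BY4741 background at LYS2 and MET17. The catalytic subunit genes were not called, with log2 differences of 0.11 ± 0.08 for CNA1 (adjusted p = 0.638) and 0.15 ± 0.07 for CMP2 (adjusted p = 0.465). Of DPH2 and HYM1, which flank CNB1, and KTR5 and SAM50, which flank CRZ1, 0 were called. The labelled mating type was checked against 7 genes specific to a cells and 4 specific to alpha cells. The a-cell genes were all tested and 0 were called. Their mean levels ran up to 1450.1 CPM in crz1 and 1469.8 CPM in crz1cnb1 for the receptor gene STE2, and the lowest were 17.3 and 12.0 CPM for ASG7. Of the alpha-cell genes, the pheromone genes MF(ALPHA)1 and MF(ALPHA)2 had 5 to 14 and 4 to 16 counts in the 6 libraries, but STE3 had 94 to 220 and the agglutinin gene SAG1 458 to 721. In CPM of library totals without TMM scaling, STE3 stood at 4.37 to 10.3 and SAG1 at 21.3 to 33.7. On that scale SAG1 lay above the a-cell gene ASG7, at 7.91 to 18.0 CPM.

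The upstream stretches around CACGTG are shown for the 6 called phosphate genes, since all of them hold this motif, which Pho4 is known to bind. Each stretch is read 5′ to 3′ on the strand of its gene from the RefSeq genome (build R64), with the motif in capitals and 20 bases on either side. The first base of the motif lay 323 bases before the start codon of PHO89, 414 in PHO84, 361 in SPL2, 283 in PHO12, 253 in PHO5 and 345 in VTC3. PHO84 and VTC3 hold a second match and SPL2 3 further ones that are not printed.
PHO89, chrII:798820-798865, minus strand: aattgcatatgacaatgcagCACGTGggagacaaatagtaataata
PHO84, chrXIII:26189-26234, minus strand: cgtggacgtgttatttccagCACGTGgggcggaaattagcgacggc
SPL2, chrVIII:375436-375481, minus strand: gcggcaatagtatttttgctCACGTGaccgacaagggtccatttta
PHO12, chrVIII:551796-551841, plus strand: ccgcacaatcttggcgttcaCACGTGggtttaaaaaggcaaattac
PHO5, chrII:431179-431224, minus strand: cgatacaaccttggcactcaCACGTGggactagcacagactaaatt
VTC3, chrXVI:517338-517383, minus strand: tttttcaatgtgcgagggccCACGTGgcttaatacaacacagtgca

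CACGTG, searched on both strands in the 600 bases before the start codon, was present in 7.31% of 5716 tested protein-coding genes. It was found in 6 of 6 called phosphate genes, in 12 of the 22 phosphate genes that were not called, in 0 of the 8 other genes called higher and in 1 of 5 protein-coding genes called lower that could be searched, which was CNB1. The motif is part of why these genes are known as phosphate genes, so its presence describes the list and is no independent measure. GNGGCNCA, a form of the site that Crz1 binds, occurred in 9.59% of all these genes and in 0 of the 6 called phosphate genes. It occurred in 3 of the 8 other higher genes, HSP12, YGP1 and PNS1. AGGGG, the core of the stress response element, occurred in 40.0% of all and in 0 of the 6 called phosphate genes. It occurred in 5 of the 8 other higher genes, HSP12, HXT4, CWP1, YGP1 and PNS1. A match or its absence here says only which letters stand in the window.

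Of the phosphate transporter genes, the high-affinity importers PHO89 and PHO84 rose. PHO89 (YBR296C, chromosome II, 796798 to 798522), which encodes a sodium-coupled phosphate importer of high affinity, stood at 4.62, 3.67 and 4.64 CPM in crz1 and at 14.1, 9.15 and 17.0 CPM in crz1cnb1. The lowest crz1cnb1 library lay well above the highest crz1 library. PHO89 rose by 3.04-fold (log2 difference 1.61 ± 0.13, SE; edgeR adjusted p = 0.000513), and it kept its call without any 1 of the pairs. PHO84 (YML123C, chromosome XIII, 24037 to 25800), the main proton-coupled phosphate importer of high affinity, stood at 240.5, 179 and 352 CPM in crz1 and at 605, 448 and 929 CPM in crz1cnb1. These levels did not overlap either, and replicate 3 was the highest and replicate 2 the lowest in both strains. PHO84 rose by 2.55-fold (1.35 ± 0.14, adjusted p = 0.00304), a call that ended without pair 2 (adjusted p = 0.116). PHO84 overlaps the noncoding RNA gene YNCM0001W on the opposite strand, and the strand setting of the counting is not given in the sources used here, so part of its counts could belong to that gene.

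SPL2 (YHR136C, chromosome VIII, 374654 to 375100) encodes a small protein that lowers uptake by the low-affinity transporters when phosphate is scarce. It stood at 2.85, 2.67 and 3.82 CPM in crz1 and at 9.80, 7.72 and 9.48 CPM in crz1cnb1, again with no overlap. SPL2 rose by 2.91-fold (log2 difference 1.54 ± 0.19, adjusted p = 0.00405), a call that ended without pair 1 (adjusted p = 0.0804). The genes of the low-affinity transporters PHO87, PHO90 and PHO91 and of the glycerophosphoinositol permease GIT1 were not called.

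Of the acid phosphatases, which release phosphate from organic compounds outside the cell, PHO5 and PHO12 rose. PHO12 (YHR215W, chromosome VIII, 552099 to 553502) stood at 11.9, 12.4 and 18.0 CPM in crz1 and at 23.0, 25.7 and 34.8 CPM in crz1cnb1, without overlap. Its rise was 1.98-fold (log2 difference 0.99 ± 0.10, edgeR adjusted p = 0.00304) and remained called without each of the pairs in turn. PHO12 shares 87.2% of its 50-base words with other places in the genome, chiefly its near copy PHO11, so the split of reads between them is uncertain. PHO11 was not called, at a log2 difference of 0.54 ± 0.13 (adjusted p = 0.148), and the printed stretch upstream of PHO12 is the same in PHO11. PHO3, a more abundant acid phosphatase gene, averaged 410 CPM in crz1 and 460 CPM in crz1cnb1, with overlap. It was not called, at 0.18 ± 0.08 (adjusted p = 0.466). PHO5 (YBR093C, chromosome II, 429548 to 430951), the main repressible acid phosphatase gene, stood at 16.2, 14.8 and 32.0 CPM in crz1 and at 31.1, 23.7 and 55.7 CPM in crz1cnb1. Here the groups overlapped, because replicate 3 was high in both strains, and the rise was seen within each pair. PHO5 rose by 1.75-fold (0.81 ± 0.09, adjusted p = 0.00365), a call that ended without pair 1 (adjusted p = 0.0790) or pair 3 (adjusted p = 0.0564).

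VTC3 (YPL019C, chromosome XVI, 514511 to 517018) encodes a subunit of the vacuolar transporter chaperone complex, which makes polyphosphate, the store of phosphate in the vacuole. It stood at 113, 106 and 161 CPM in crz1 and at 159.8, 161 and 234 CPM in crz1cnb1, overlapping narrowly at replicate 3 of crz1. VTC3 rose by 1.46-fold (log2 difference 0.55 ± 0.06, adjusted p = 0.00304) and kept its call without each pair. The other genes of phosphate storage and release were not called. Positive differences were 0.33 ± 0.07 for VTC4, the polymerase subunit of the same complex (adjusted p = 0.0793), 0.41 ± 0.10 for VTC1 (adjusted p = 0.175) and 0.33 ± 0.07 for the vacuolar alkaline phosphatase gene PHO8 (adjusted p = 0.0793). PHM6, of unknown function, had 0.59 ± 0.16 (adjusted p = 0.209). Negative ones were -0.02 ± 0.06 for VTC2 of the same complex (adjusted p = 0.925), -0.13 ± 0.08 for the polyphosphatase gene PPN1 (adjusted p = 0.584) and -0.07 ± 0.07 for the inositol polyphosphate kinase gene KCS1 (adjusted p = 0.726).

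The regulators of the pathway were not called. PHO4 had a log2 difference of -0.48 ± 0.21 (adjusted p = 0.449), from 18.9, 23.9 and 8.68 CPM in crz1 and 16.6, 10.9 and 8.59 CPM in crz1cnb1, which overlapped broadly. PHO81, which is itself a target of Pho4, had 0.16 ± 0.09 (adjusted p = 0.547). Of the whole list of 28 phosphate genes, all of them tested, 6 (21.4%) were called higher and 0 lower, against 0.222% and 0.111% of all features. The median log2 difference of the 28 was 0.16, against 0.01 over all features, and 23 were positive, as were 53.1% of all features. Under library totals the median was 0.04, which is 0.15 above that of all features. All 6 calls were also made with library totals, and on log2(TPM + 1) those of PHO89, PHO84 and PHO12 held while PHO5, SPL2 and VTC3 had adjusted p-values of 0.0557, 0.0552 and 0.0682 (limma).

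**Figure D2:**
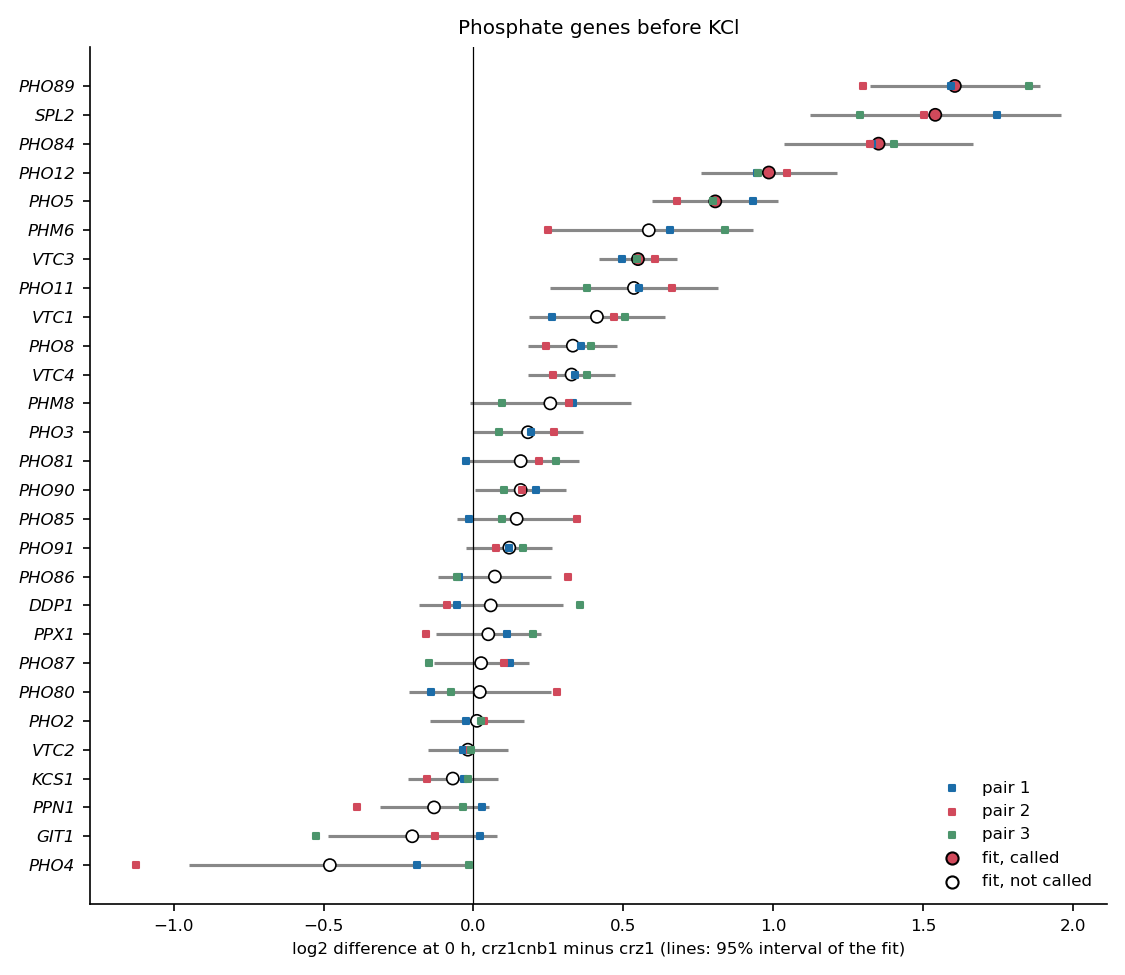
Log2 difference at 0 h (crz1cnb1 minus crz1, horizontal axis) for the 28 phosphate genes, as the fitted value with its 95% interval (filled red where called, open where not) and as the value of each pair (small squares). The 6 called genes run from 0.55 for VTC3 to 1.61 for PHO89, and 5 of the 28 lie below 0, the lowest being PHO4 at -0.48.

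Known Crz1 targets were examined as a list, with CRZ1 absent from both strains. Of 16 tested gene by gene, PHO89 was the 1 member called (6.25%, against 0.333% of all features), and it also stands in the phosphate list. The other 15, among them the calcium pump genes PMC1 and PMR1 and the calcineurin regulator gene RCN1, lay between -0.11 and 0.33 on the log2 scale. The largest of these were CRH1, a cell wall transglycosylase gene at 0.33 ± 0.06 (edgeR adjusted p = 0.0663), and KRE6, a gene of glucan synthesis at 0.28 ± 0.07 (adjusted p = 0.167). The median of the 16 was 0.11, and 12 (75%) were positive, against 53.1% of all features. Of the 1405 features from 100 to 1000 CPM 73.2% were positive, and the part of the level of expression in this list was not tested. The median of the 16 was -0.003 under library totals, but 0.10 above the median of all features in both scalings.

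Of 25 cell wall genes tested, CWP1 was the 1 called (4%, against 0.333% of all features). CWP1 (YKL096W, chromosome XI, 261132 to 261851), which encodes a mannoprotein of the wall, stood at 371, 323 and 395 CPM in crz1 and at 528, 535 and 686 CPM in crz1cnb1. The groups did not overlap. CWP1 rose by 1.60-fold (log2 difference 0.68 ± 0.08, edgeR adjusted p = 0.00365), a call that ended without pair 3 (adjusted p = 0.0564). Its neighbour CWP2, another wall mannoprotein gene, had 0.64 ± 0.14 (adjusted p = 0.126), and PIR3, which encodes a protein bound to wall glucan, had 0.61 ± 0.11 (adjusted p = 0.0663). DAN1, an anaerobic mannoprotein gene, averaged 0.745 CPM in crz1 and 0.348 CPM in crz1cnb1, with a difference of -1.16 ± 0.37 (adjusted p = 0.321). Of the 25 genes 21 had a positive difference, against 53.1% of all features, and the median was 0.21. Under library totals the median was 0.10 with 16 positive, and on log2(TPM + 1) 0.08 with 14 positive, while 21 of the 25 lay above the median of all features in each of these fits. Many of these genes are abundant, and abundant features were shifted upward in general, whose part in these values was not tested.

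YGP1 (YNL160W, chromosome XIV, 336545 to 337609), the gene of a secreted glycoprotein made in nutrient limitation, stood at 203, 157 and 268 CPM in crz1 and at 313, 279.8 and 385 CPM in crz1cnb1. All crz1cnb1 libraries were above all crz1 libraries. YGP1 rose by 1.58-fold (log2 difference 0.66 ± 0.07, edgeR adjusted p = 0.00304) and kept its call without each pair. HSP12 (YFL014W, at 107256 to 107585 on chromosome VI) encodes a small stress protein that steadies membranes. It stood at 47.6, 48.3 and 34.6 CPM in crz1 and at 81.3, 79.1 and 66.8 CPM in crz1cnb1. These groups did not overlap either, with replicate 3 the lowest in both. HSP12 rose by 1.75-fold (0.81 ± 0.10, adjusted p = 0.00401), a call that ended without pair 1 (adjusted p = 0.0701) or pair 3 (adjusted p = 0.0564). It was the 1 gene called among 26 general stress genes (3.85%, against 0.333% of all features). Their median was 0.06, and 15 (57.7%) were positive, close to the 53.1% of all features.

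Further rises were seen in transporter, membrane and regulator genes. HXT4 (YHR092C, chromosome VIII, 287081 to 288811), a glucose transporter gene, stood at 26.6, 20.8 and 45.6 CPM in crz1 and at 47.7, 33.7 and 68.9 CPM in crz1cnb1, which overlapped. It rose by 1.64-fold (log2 difference 0.71 ± 0.10, edgeR adjusted p = 0.00894). HXT4 was the 1 gene called among 20 hexose transport genes (5%, against 0.333% of all features). ADR1 (YDR216W), the activator of genes for ethanol and fatty acid use, rose by 1.47-fold (0.55 ± 0.06, adjusted p = 0.00365), from 64.2 to 85.7 CPM in crz1 and 94.6 to 127 CPM in crz1cnb1. SUR7 (YML052W), which encodes a protein of eisosomes, the furrows of the plasma membrane, rose by 1.47-fold (0.56 ± 0.07, adjusted p = 0.00608). The smallest rises were those of PNS1 (YOR161C), of uncertain function, by 1.39-fold (0.47 ± 0.07, adjusted p = 0.0172), and ZRT1 (YGL255W), the high-affinity zinc importer gene, by 1.37-fold (0.45 ± 0.07, adjusted p = 0.0287). ADR1 and PNS1 did not overlap between the strains, while SUR7 and ZRT1 did. Without pair 1 the adjusted p was 0.0724 for ADR1, 0.0848 for SUR7, 0.180 for HXT4, 0.226 for PNS1 and 0.256 for ZRT1. Without pair 3 it was 0.0564 for ADR1, 0.0629 for HXT4 and 0.146 for ZRT1, and without pair 2 it was 0.0524 for ZRT1. The KCl pairs enter only the estimate of the spread, but ZRT1 also lost its call without KCl pair 1 (adjusted p = 0.0653) or 3 (0.0517), and PNS1 without KCl pair 3 (0.0779).

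Genes lower in crz1cnb1 were of low level. STE3 (YKL178C, chromosome XI, 113215 to 114627), the gene of the a-factor receptor that alpha cells use, stood at 9.56, 9.08 and 12.0 CPM in crz1 and at 4.61, 4.95 and 5.53 CPM in crz1cnb1. SEO1 (YAL067C, chromosome I, 7235 to 9016), a putative permease gene, stood at 15.3, 13.9 and 11.0 CPM in crz1 and at 7.75, 7.07 and 4.36 CPM in crz1cnb1. In neither gene did the groups overlap. STE3 was lower by 2.02-fold (log2 difference -1.01 ± 0.12, edgeR adjusted p = 0.00365) and SEO1 by 2.11-fold (-1.08 ± 0.13, adjusted p = 0.00405), and both calls narrowly ended without pair 1 (adjusted p = 0.0522 for each). COS12 (YGL263W), of a subtelomeric gene family, was lower by 1.66-fold (-0.73 ± 0.12, adjusted p = 0.0287), with 12.3 to 21.6 CPM in crz1 and 9.01 to 11.9 CPM in crz1cnb1. Its call ended without pair 1 (adjusted p = 0.226) or pair 3 (adjusted p = 0.184), and without KCl pair 2 (0.0684) or 3 (0.0850), which enter only the spread.

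PRM6 (YML047C, chromosome XIII, 180017 to 181075), a pheromone-regulated membrane protein gene, stood at 6.52, 6.37 and 10.8 CPM in crz1 and at 3.04, 2.96 and 3.53 CPM in crz1cnb1. It was lower by 2.42-fold without overlap (log2 difference -1.27 ± 0.21, edgeR adjusted p = 0.0367), but its adjusted p was 0.141, 0.0567 and 0.278 without pairs 1, 2 and 3, and 0.103 without KCl pair 3. PRM6 was the 1 gene called among 20 of the pheromone response (5%, against 0.333% of all features). Of these 20 genes 17 were negative with a median of -0.25, where 53.1% of all features were positive. The median stayed 0.26 below that of all features under library totals. The mating fusion genes FIG1 and FUS2 had -0.89 ± 0.25 (adjusted p = 0.237) and -0.69 ± 0.14 (adjusted p = 0.0793), and ASG7, an a-cell gene, had -0.53 ± 0.18 (adjusted p = 0.357). Features from 1 to 10 CPM were shifted slightly downward in general, with a median of -0.07. Those from 10 to 100 CPM, where ASG7 lay, had a median of -0.01. The part of the level of expression in these values was not tested.

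Called features without a standard gene name lay outside the rule for naming genes and were chosen after their values were seen. RDN5-1, a copy of the repeated 5S ribosomal RNA gene, had 45 to 87 counts in crz1 and 11 to 16 in crz1cnb1, a log2 difference of -2.19 ± 0.24 (edgeR adjusted p = 0.00345). Its reads come from many near-identical copies and from an RNA without a poly(A) tail, so its value is uncertain. YER158W-A had 40 to 68 counts in crz1 and 16 to 32 in crz1cnb1 (-1.14 ± 0.19, adjusted p = 0.0374), and its adjusted p was 0.196, 0.0702 and 0.221 without pairs 1, 2 and 3, 0.0778, 0.0702 and 0.103 without KCl pairs 1, 2 and 3, 0.178 in DESeq2 and 0.0619 in limma voom.

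**Figure D3:**
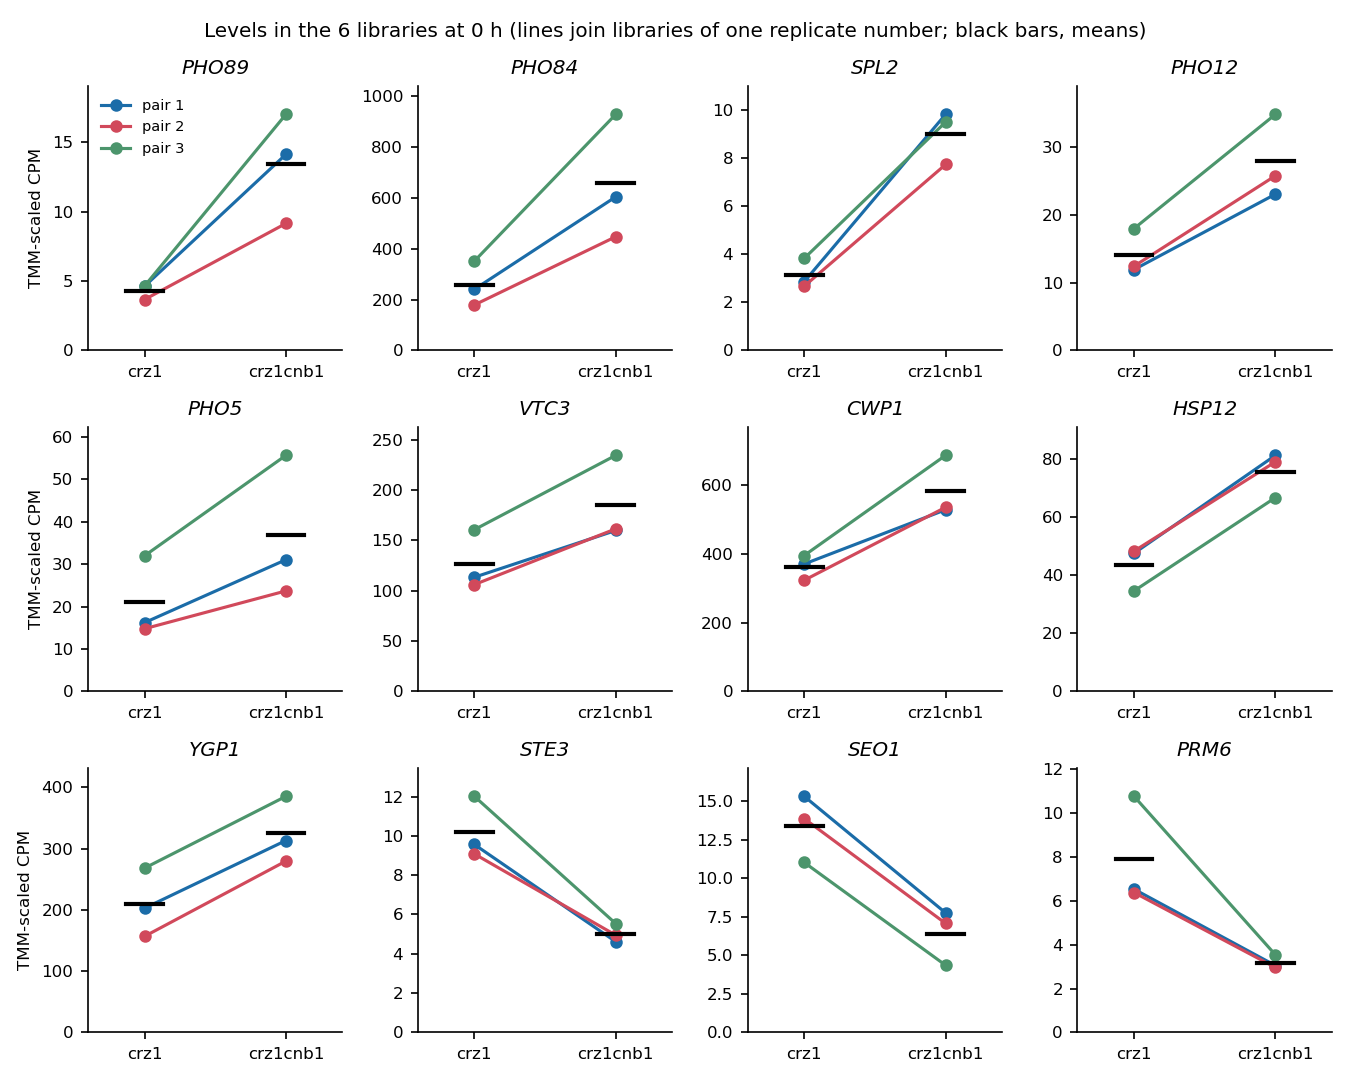
TMM-scaled CPM at 0 h (vertical axes, from 0) in crz1 and crz1cnb1 for 12 of the called genes, with 1 point per library, lines that join libraries of the same replicate number and black bars at the means. Every line rises in the 9 genes from PHO89 to YGP1 and falls in STE3, SEO1 and PRM6, also in PHO5 and VTC3, where the levels of the 2 strains overlap.

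Of 44 lists examined, 32 had 0 called members, which says little of lists this short when 0.333% of all features were called. Among these were calcium transport (10 genes), the vacuolar ATPase (15), ergosterol synthesis (24), osmotic stress (15), the iron regulon (30) and sulfate assimilation (33). In the potassium, sodium and proton transport list 0 of 20 were called, with a median of 0.07. Of 138 cytosolic ribosomal protein genes 134 (97.1%) were positive, against 53.1% of all features, at a median of 0.15 and with 0 called. That median was 0.005, 0.35 and 0.13 in pairs 1, 2 and 3, and 0.04 with 95 positive under library totals. All 201 features at 1000 CPM or more were 97.5% positive, also at a median of 0.15. The part of the level of expression in the values of this list was not tested.

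**Figure D4:**
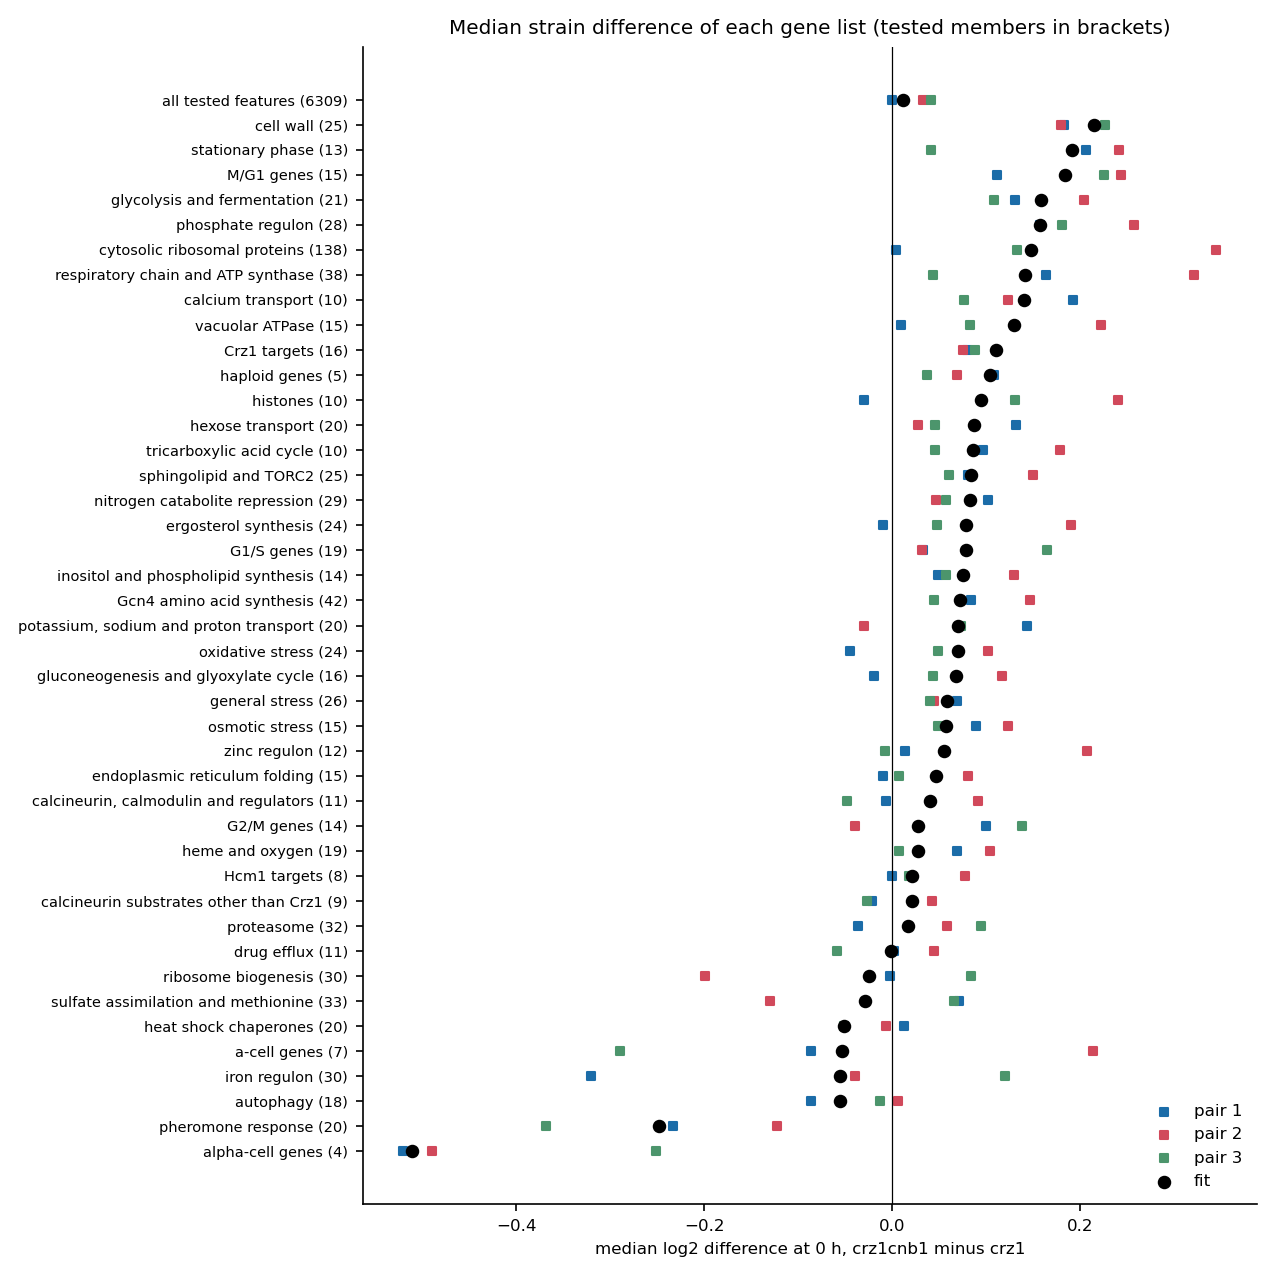
Median log2 difference at 0 h (crz1cnb1 minus crz1, horizontal axis) of the gene lists and of all tested features, from the fit (black points) and in each pair (coloured squares), with the number of tested members in brackets. The lists of genotype markers and of neighbours of the deletions are not drawn. The medians of most lists lie close to 0, while those of the 4 alpha-cell genes (-0.51) and the 20 pheromone response genes (-0.25) lie lowest and that of the 25 cell wall genes (0.21) highest. Of the 4 alpha-cell genes 1 was positive, and MF(ALPHA)1 and MF(ALPHA)2 had only 5 to 14 and 4 to 16 counts per library at 0 h.

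The strain comparison in KCl used 6 other libraries, of the same strains after 48 h in 400 mM KCl, and shared with the comparison at 0 h the estimate of the spread and the strains themselves. It called 26 features, 0.412% of those tested. Of the 20 features other than CNB1 called at 0 h, 20 had the same sign in KCl, 18 had it in 3 of 3 KCl pairs, as did 32.2% of all features in either direction, and 11 were called there in the same direction. These 11 were 55% of the calls at 0 h and 44% of the 25 calls in KCl, CNB1 aside in both. PHO84 was at 126, 169 and 80.6 CPM in crz1 in KCl and at 351, 397 and 367 CPM in crz1cnb1, a log2 difference of 1.62 ± 0.14 (edgeR adjusted p = 0.000631). SPL2, at 2.64 to 4.37 CPM in crz1cnb1 and lower in every crz1 library, had 2.17 ± 0.27 there (adjusted p = 0.00689), PHO89 1.02 ± 0.13 (adjusted p = 0.00766), PHO12 0.81 ± 0.12 (adjusted p = 0.0145) and VTC3 0.37 ± 0.06 (adjusted p = 0.0244). So 5 of the 6 phosphate calls at 0 h were also called in KCl.

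Of the 20 features called at 0 h other than CNB1, 7 had a larger difference in KCl and the others a smaller one. PHO5 and HSP12 were among those not called in KCl, at log2 differences of 0.14 ± 0.10 (edgeR adjusted p = 0.904) and 0.23 ± 0.09 (adjusted p = 0.655), with 2 of 3 pairs higher in each. The test of the difference between the strain effects at 0 h and in KCl called 0 features in edgeR, DESeq2 and limma voom. The smallest edgeR adjusted p was 0.723, that of PHO5, and 276 features had an unadjusted p under 0.05. None of the strain differences at 0 h was therefore shown to be different in KCl.

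**Figure D5:**
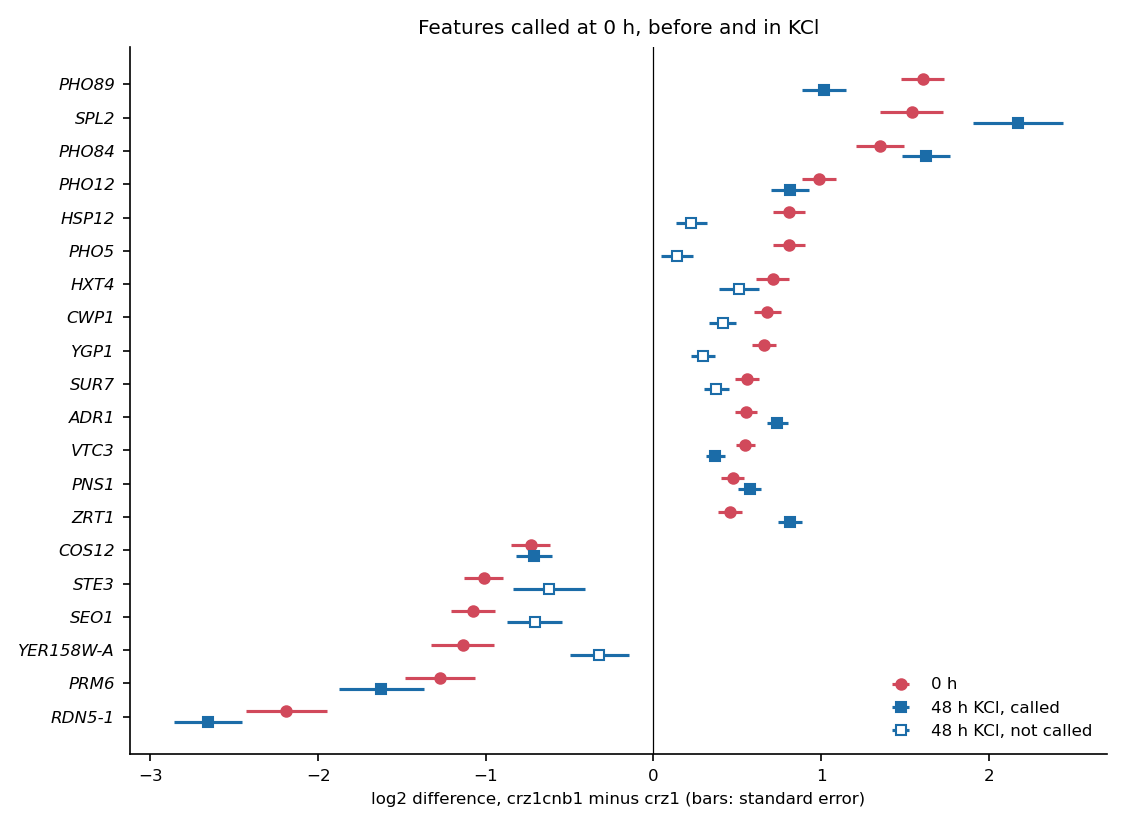
Log2 difference between the strains (crz1cnb1 minus crz1, horizontal axis, bars are standard errors) at 0 h (red circles) and after 48 h in KCl (blue squares, filled where called) for the 20 features called at 0 h other than CNB1. All 20 lie on the same side of 0 at both times. In KCl 7 of them lie farther from 0 and the others nearer, PHO5 and HSP12 among the latter.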

How the data were processed

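Per the file headers, the authors deposited counts for 7126 features and TPM for 6735, in a column for each library. Build R64, featureCounts and DESeq2 appear in the submitters' processing notes. For the aligner, the strand setting and multiply mapped reads, the method is not given in the sources used here. Counts were tested with edgeR 4.0.16 (R 4.3.3; TMM, filterByExpr by group, robust glmQLFit, glmQLFTest) over all 12 libraries, with a block for each of the 6 pairs of libraries sharing treatment and replicate number and 1 strain coefficient per treatment. Deviations from group means correlated at 0.542 to 0.790 in the 3 same-number pairs at 0 h and at -0.610 to 0.231 in the 6 others. Over all libraries the ranges were 0.309 to 0.827 in 18 same-number pairs and -0.732 to 0.317 in 36 others, which overlap narrowly. Every same-number correlation was above 0.1, so the numbers were taken to pair the samples. No label gives a day or batch. The common biological coefficient of variation was 0.0845 with pair blocks and 0.223 without.

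Alternatives used DESeq2 1.42.0 and limma 3.58.1. CPM are TMM-scaled, SE are of log2 differences, and intervals are 95%. Named genes were the called genes with the same sign in 3 of 3 pairs, a standard name and at least 10 CPM in either strain (up to 15 per direction, filled to 5 by p-value), those of the genotype and their neighbours, and the leading members of each list. The phosphate genes that were not called were named after their values were seen, and so were PMC1, PMR1 and RCN1. Comparisons and lists were chosen with earlier results of these data known. Of 7126 identifiers, 6048 matched the R64 annotation. Over 5 simulated data sets of 6309 features modelled on the comparison at 0 h, with pair blocks, the test recovered 213, 237, 246 and 248 of 250 genes changed 1.5-, 2-, 4- and 8-fold, and 71 of its 1015 calls (7%) were unchanged genes. Without the block it recovered 9, 118, 232 and 246, with 0 unchanged genes called. The simulated means and spread came from fits with pair blocks, so the gain from the block was set in advance. These counts therefore cannot show whether the replicate numbers pair the real libraries.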

Additional observations from a re-analysis of the deposited data

Results flagged for a closer look

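KCS1 was set apart because its strain difference (crz1cnb1 minus crz1) was negative in 3 of 3 pairs at 0 h, at -0.03, -0.16 and -0.02 on the log2 scale, and positive in 3 of 3 pairs in KCl, at 0.01, 0.17 and 0.09. The test of the difference between the times did not pass (-0.16 ± 0.10, SE; edgeR adjusted p = 0.849), and KCS1 was called at neither time.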

How the results depend on the processing

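The strain difference at 0 h rests on the replicate block. Against 21 calls with pair blocks, edgeR called 1 feature (CNB1) with no replicate block, 1 in the 6 libraries alone with no replicate block and 5 with a replicate block shared between treatments, and 1 to 2 with no replicate block when single libraries were left out. DESeq2 called 61 with the block and 7 without it, the latter added after the data were seen, and glmTreat at a fold of 1.5 called 4. Leaving out a pair gave 8 to 23 calls at 0 h. The count at 0 h stayed within 1.5 times of 21 with DESeq2 size factors, library totals, no filter, voom, both TPM fits and the 6 libraries alone with the block. A like count did not mean the same features. Of the 21 calls, 12 were shared on log2(TPM + 1) and 11 on log2(TPM + 0.1), against 16 to 21 in the others of these fits. The TPM fits called 6 higher and 13 lower, and 6 higher and 11 lower. In KCl, against 26 calls, there were 42 in DESeq2, 11 on log2(TPM + 1), 10 on log2(TPM + 0.1), 3 with no replicate block, 4 with the shared block and 9 to 48 when a pair was left out. Of the 20 called features other than CNB1, 19 kept their sign in all 25 alternatives. ZRT1 turned to -0.046 with no replicate block and without crz1cnb1 replicate 3, where PHO81 turned to -0.019 and KCS1 to 0.0023, both not called. VTC2 and KCS1, not called, turned to 0.0032 without crz1cnb1 replicate 1 and 0.026 without crz1 replicate 2, with no replicate block. CNA1, also not called, turned to -0.00020 with library totals, -0.0227 and -0.0229 on log2(TPM + 1) and log2(TPM + 0.1), where the median of all features moved alike (-0.102, -0.115 and -0.123), and to -0.0194 and -0.0016 with no replicate block and without crz1 replicate 1 or crz1cnb1 replicate 3. The cause of the other shifts was not tested. Depth left CRZ1, with 4 to 9 counts, untested.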
